A study of Mus musculus with 6 samples.

Results

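Levels of *Kit*, its ligand gene *Kitl* and other receptor tyrosine kinase genes were examined in undifferentiated mouse embryonic stem cells (mESCs) with and without *Alkbh1*, which encodes a dioxygenase of the AlkB family. The group holds 10 genes of the 15357 that could be named on the table of probe sets: *Kit* and *Kitl*, the ErbB receptor genes *Egfr*, *Erbb2* and *Erbb3* with the adaptor gene *Grb7*, the fibroblast-associated receptor genes *Pdgfra* and *Pdgfrb*, and *Igf1r* and *Met*. The genes were chosen by name, with earlier results of these data known, as were the lists of related genes and markers below. To the 10 genes belonged 24 probe sets. A probe set is a group of short oligonucleotides on the array whose joint brightness reflects the abundance of a transcript. Of the 24, 14 carried the current gene symbol in the table and 10 an older symbol or none, and these were placed through the gene identifier.

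The arrays were 3 of wild-type (WT) mESCs and 3 of Alkbh1-/- mESCs, all on a C57BL/6 background, at passage 8 and day 0 of differentiation, kept with leukemia inhibitory factor and with no treatment. Both genotypes were derived from littermate embryos and grown on irradiated mouse embryonic fibroblasts. The array names carry a single prefix in each genotype, and whether the 3 arrays of a genotype came from separate cultures is not stated in the labels, so that line and genotype cannot be told apart here. Each gene is described by the mean over all arrays of both genotypes (log2) and, where the second table holds them, by the mean of each genotype. Only these means entered the analysis, not the single arrays, so that none of the differences below has a standard deviation or a test, and overlap between arrays of the genotypes could not be examined.

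Receptor tyrosine kinases are membrane proteins that bind a growth factor outside the cell, pair up, and phosphorylate each other inside it. The phosphorylated tails recruit adaptors such as GRB and SHC proteins, which pass the signal to the RAS-MAPK and PI3K pathways. KIT, the receptor of stem cell factor (the product of *Kitl*), is known for its role in germ cells, melanocytes, mast cells and blood progenitors, and is also found on mESCs. PDGF receptors are typical of fibroblasts and other mesenchymal cells.

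Group means were available for 2261 genes at their brightest probe set, 14.7% of the genes on the table, and for 4 of the 10 genes described here, *Kit*, *Grb7*, *Igf1r* and *Met*. The table that holds them lists probe sets with a nominal p under 0.05 after a filter, and its smallest difference between the genotypes was 0.37 on the log2 scale. Its identifiers stand beside the values of other probe sets, so that every group mean given here rests on a match by the mean over all arrays. A gene with group means was listed because its genotypes differed at this nominal threshold, so that some genes may be listed by chance. A gene without them may have been removed by the filter or may have missed the p threshold, and cannot be called equal in the genotypes.

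The lines were first checked by the targeted gene and by sex-linked transcripts. *Alkbh1* had a geometric mean intensity of 761 in WT and 25.7 in Alkbh1-/- mESCs at its brightest probe set (log2 difference −4.89), and 120 and 34.6 at the other (log2 difference −1.79). The Y-linked *Eif2s3y* was at 751 in WT and 14.9 in Alkbh1-/- mESCs (log2 difference −5.65). The 3 probe sets of the Y-linked *Ddx3y* had log2 differences between −3.23 and −4.87, and those of the Y-linked *Uty* had −2.69, −3.89 and −2.33. The Y-linked *Kdm5d*, at the 27.5th and 0.0573rd percentiles of all probe sets, had no group means. The X-inactivation transcript *Xist*, at the 35.5th and 17.4th, had none either. Of 524 X-linked genes on the table, 280 had group means at the brightest probe set (53.4%), of which 259 were higher and 21 lower in Alkbh1-/- mESCs, with a median log2 difference of 0.75; these genes were counted after values were seen. The lines thus differed in Y-linked and X-linked transcripts as well as in *Alkbh1*. None of the 10 genes described here is X-linked or Y-linked, and what part of their differences goes with the sex-linked difference and what part with the genotype cannot be told apart.

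*Kit* had the higher group mean in Alkbh1-/- mESCs at both of its probe sets. At the brighter one (1452514_a_at) the geometric mean intensity was 342 in WT and 844 in Alkbh1-/- mESCs, a difference of 1.31 on the log2 scale and a 2.47-fold higher value. At the dimmer one (1415900_a_at) it was 49.7 in WT and 119 in Alkbh1-/- mESCs, a difference of 1.26 on the log2 scale. The probe sets thus differed 2.47-fold and 2.40-fold between the genotypes, although the brighter stood at the 82.2nd percentile of all probe sets by its mean over the arrays and the dimmer at the 49.5th. Percentiles here and below describe the signal of a probe set, which also depends on its oligonucleotides, and do not rank genes by expression.

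*Kitl*, whose product is the only known ligand of KIT, had no group means. Its probe sets had means over all arrays of 5.33 and 4.52 on the log2 scale, at the 35th and 19.3rd percentiles. The gene next to *Kit* on one side is *Pdgfra* and on the other *Kdr*, another receptor tyrosine kinase gene, whose product binds VEGF, and neither had group means. Among the 5 protein-coding genes on each side of *Kit*, an extent set after values were seen, 9 of 10 were on the table and 3 had group means at any probe set, where 18.2% of all genes had them; with so few genes the counts of neighbours here and below are given as a description. The difference, Alkbh1-/- minus WT (log2), was −0.81 for *Lnx1*, 0.73 for *Clock* and 3.54 for *Pdcl2*. The genes around *Kit* thus differed in both directions or were not listed.

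*Grb7*, whose product is an SH2-domain adaptor that binds ErbB receptors, was the member with the largest lower value in Alkbh1-/- mESCs among the 4 with group means. Its single probe set (1448227_at) had a geometric mean intensity of 520 in WT and 262 in Alkbh1-/- mESCs, a difference of −0.99 on the log2 scale, or 1.99-fold lower. *Erbb2* lies 2 genes away from *Grb7*, with *Mien1* between them, and none of the 10 nearest protein-coding genes of *Grb7* had group means (7 were on the table). The group mean of *Grb7* is thus given without one for the receptor gene beside it.

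None of the ErbB receptor genes had group means. *Erbb3*, which encodes a receptor with little kinase activity of its own that signals with ErbB partners, had a mean over all arrays of 8.48 at its brighter probe set (1434606_at, 76.1st percentile) and 3.96 at the other (5.55th percentile). *Erbb2*, which encodes the ErbB receptor without a known ligand, had a single probe set at 6.27 (49.6th percentile). *Egfr*, which encodes the receptor of epidermal growth factor, had 5 probe sets between 4.93 and 6.50.

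**Figure D1:**
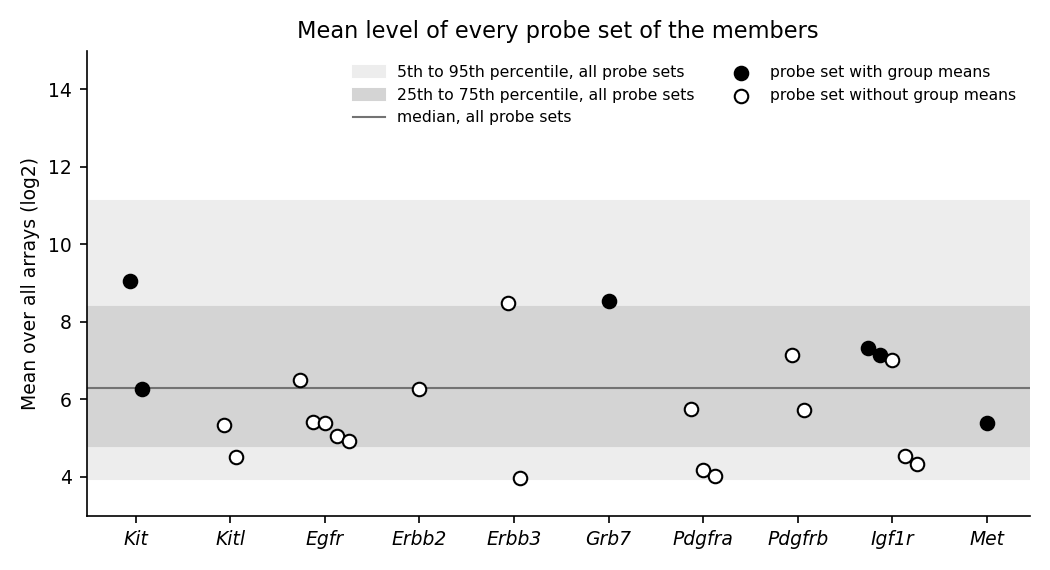
The mean over all arrays of both genotypes (log2, vertical axis) is plotted for every probe set of the 10 genes (horizontal axis). Filled points have group means and open points have none, and the bands and the line give percentiles of all probe sets on the table. The 2 probe sets of *Kit* stand at 9.07 and 6.27, and those of *Erbb3* at 8.48 and 3.96.

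*Igf1r*, which encodes the receptor of insulin-like growth factors and is used by many dividing cells, had 5 probe sets, and the 2 brightest had group means. At 1452982_at the geometric mean intensity was 202 in WT and 130 in Alkbh1-/- mESCs (log2 difference −0.64). At 1428967_at it was 176 in WT and 113 in Alkbh1-/- mESCs (log2 difference −0.64). Both were thus about equally lower in Alkbh1-/- mESCs, by 1.56-fold, while the other 3 probe sets, with means over all arrays of 7.03, 4.53 and 4.34, had no group means. The one at 7.03 (1426565_at) stood at the 59.4th percentile, so that absence from the listing was not limited to dim probe sets of *Igf1r*. Among the 5 protein-coding genes on each side of *Igf1r*, 9 of 10 were on the table and *Ttc23* had group means, with a log2 difference of −0.88.

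*Met*, the gene of the hepatocyte growth factor receptor, had a single probe set (1434447_at) at the 36.3rd percentile. Its geometric mean intensity was 51.6 in WT and 34.5 in Alkbh1-/- mESCs, a log2 difference of −0.58 and a 1.49-fold lower value, just short of a 1.5-fold difference. Among the 5 protein-coding genes on each side, 7 of 10 were on the table and *Tes* had group means, with a log2 difference of −1.10.

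**Figure D2:**
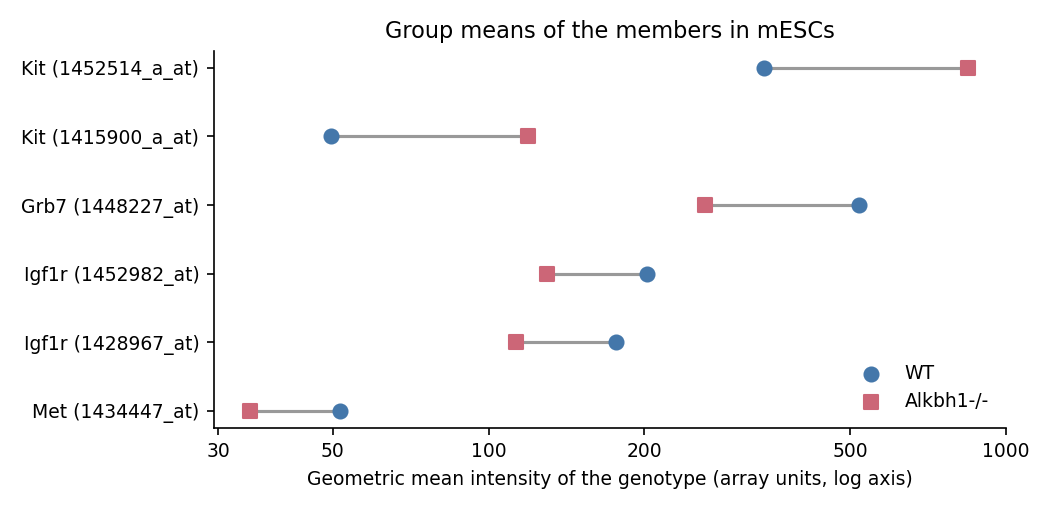
The geometric mean intensity of each genotype (horizontal log axis, array units) is plotted for the 6 probe sets with group means, circles for WT and squares for Alkbh1-/- mESCs, with no error because only means were used. Both probe sets of *Kit* lie to the right in Alkbh1-/- mESCs, and those of *Grb7*, *Igf1r* and *Met* lie to the left.

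With a linear fold over 1.5, which is 0.58 on the log2 scale, 1 of the 4 genes with group means was higher in Alkbh1-/- mESCs (*Kit*) and 2 were lower (*Grb7* and *Igf1r*). Over all 2261 genes with group means, 31.6% were higher and 33.4% lower by this measure, and 52.7% were lower by any amount. These shares depend on the centring, since the median difference was −0.44 over the 2261 genes and 0.42 over all entries. Centred on the former, 47.3% of the genes were higher and 8.05% lower past 1.5-fold, and of the members *Kit* was higher and 0 were lower. Centred on the latter, 11.9% were higher and 52.7% lower, and *Kit* was higher and 3 members lower. Because the smallest listed difference was 0.37, centring on the former puts every higher gene past 1.5-fold, and on the latter every lower gene. The 47.3% and 52.7% are thus fixed by the listing. Listing for a nominal difference makes such folds common, and the counts of the members are too few to set apart from these shares. The median size of the difference over the 2261 genes was 0.68 on the log2 scale and the 75th percentile was 0.93. *Kit* and *Grb7* lay above the 75th percentile and *Igf1r* and *Met* below the median.

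The PDGF receptor genes had no group means. *Pdgfra*, a receptor for PDGF ligands that also marks early mesenchyme, had means over all arrays of 5.74, 4.19 and 4.03 at its 3 probe sets. *Pdgfrb*, whose product is found on fibroblasts and pericytes, was at 7.15 and 5.72. A genotype difference of these genes could therefore not be given, and the feeder layer was looked at through other fibroblast transcripts.

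Of 21 fibroblast marker genes, all were on the table, with levels from the 36.1st percentile (*Twist1*) to the 97.8th (*Thbs1*, the brightest), so that none was near the bottom of the range. Group means were available at any probe set for 9, and all 9 were lower in Alkbh1-/- mESCs. Over all genes, 18.2% had group means at any probe set, and 49.7% of these were lower at every such probe set. The marker list was chosen with earlier results of these data known, so that the shares are set side by side as a description. For 6 of the 9 the brightest probe set had group means (28.6% of the list, against 14.7% of all genes), with a median log2 difference of −0.89, and 5 passed 1.5-fold. Over these 6, the summed intensity was 5211 in WT and 2669 in Alkbh1-/- mESCs. *Col1a1*, the gene of a type I collagen chain, had a log2 difference of −1.06, and *Tagln*, the gene of an actin-binding protein of contractile cells, one of −1.11. The other 12 markers had no group means, among them *Thbs1*, *Fn1*, *Vim* and *Sparc*. The part of feeder RNA in the lower values of *Grb7*, *Igf1r* and *Met* was not tested, and in these bulk samples fewer cells of a type and less RNA per cell cannot be told apart.

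The label of the cells was checked against 10 mESC markers, which all stood at or above the 89.9th percentile, *Pou5f1* and *Sox2* at the 98.6th and 98.7th. Of the 5 with group means at the brightest probe set (50%, against 14.7% of all genes), 4 were higher in Alkbh1-/- mESCs, with *Nanog* at a log2 difference of 1.10, and *Utf1* was lower at −0.49. Genes of other cell types that use KIT were looked at beside *Kit*. *Mitf*, a transcription factor gene of melanocytes and mast cells, had group means of 6.50 in WT and 7.94 in Alkbh1-/- mESCs (log2 difference 1.44), whereas the melanocyte enzyme gene *Dct* stood at the 0.652nd percentile with no group means, and *Cpa3* and *Tyr* were not analysed here. *Mlana* and *Pmel*, melanosome genes added after values were seen, had log2 differences of 1.19 and 0.56. The germ cell gene *Dazl* was higher in Alkbh1-/- mESCs at both probe sets (log2 differences 1.36 and 1.63) and the germ cell gene *Ddx4* was lower (−0.71). Whether these differences are linked to that of *Kit* was not tested.

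Ligand genes of these and related receptors had a median signal at the 21.9th percentile over the 17 of 19 listed genes on the table. Of these, 3 had group means (17.6%, against 14.7% of all genes). *Mst1*, which encodes the ligand of the MET relative RON, had group means of 4.87 in WT and 6.78 in Alkbh1-/- mESCs, a 3.76-fold higher value. *Igf2*, an insulin-like growth factor gene that signals through IGF1R, had a log2 difference of −0.63. *Pdgfa*, the gene of a PDGFRA ligand, had group means of 9.73 in WT and 10.19 in Alkbh1-/- mESCs (1.37-fold higher) at its brightest probe set. Its other probe set was nearly as bright (means over all arrays of 9.95 against 9.96) and had no group means. Ligand genes with group means thus lay in both directions, at 2 higher, among them *Mst1*, whose receptor is not a member, and 1 lower.

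Of 39 other receptor tyrosine kinase genes, 32 were on the table and 5 had group means at the brightest probe set (15.6%, near the 14.7% of all genes), 1 higher and 4 lower in Alkbh1-/- mESCs. With dimmer probe sets included 7 had group means, 1 higher and 6 lower. Over all genes 18.2% had them at any probe set, and 49.7% of these were lower. The largest difference among the 7 was that of *Epha1*, an ephrin receptor gene, with group means of 6.60 in WT and 5.29 in Alkbh1-/- mESCs (log2 difference −1.31). *Ror1*, which encodes a receptor of Wnt5a, had a log2 difference of −0.83, *Ephb4*, another ephrin receptor gene, of −0.58, and *Ddr1*, a collagen receptor gene read by a probe set that may cross-hybridize, of −0.44. *Ltk*, a relative of the ALK receptor gene, was the one with a higher value, at 0.55. *Ddr2*, a collagen receptor gene of mesenchymal cells (−0.98), and *Epha7* (−0.59 and −0.46) had group means at dimmer probe sets while their brightest had none. The 2 genes that passed 1.5-fold at the brightest probe set, *Epha1* and *Ror1*, were both lower, beside 25 genes on the table without group means.

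Adaptors and effectors had a median signal at the 73.2nd percentile. Of the 32 on the table, 4 had group means at the brightest probe set (12.5%, against 14.7% of all genes). At any probe set 5 had them, where 18.2% of all genes did. *Grb10*, an adaptor of the same family as *Grb7* and an inhibitor of insulin and IGF1 receptor signaling, had group means of 11.01 in WT and 9.40 in Alkbh1-/- mESCs, a 3.05-fold lower value. Of its 2 dimmer probe sets, 1 had a log2 difference of −1.04 and the other had no group means. *Irs1*, which encodes a docking protein of the insulin and IGF1 receptors, was 2.52-fold lower (log2 difference −1.33). *Plcg2*, a phospholipase gene, had a log2 difference of −0.79, and *Fyn*, a SRC family kinase gene, one of −0.42 at a dimmer probe set. *Yes1*, a SRC family kinase gene known from mESC self-renewal, was higher at all 4 of its probe sets with group means, with log2 differences of 0.61, 0.55, 0.80 and 0.74. In all, 4 genes of this list were lower and 1 was higher, where 49.7% of all genes with group means at any probe set were lower.

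Negative regulators had group means at the brightest probe set for 4 of 16 genes (25%, against 14.7% of all genes), 2 higher and 2 lower. At any probe set 6 had them, 3 higher and 3 lower. Over all genes 18.2% had them at any probe set, and 49.7% of these were lower. *Ptprj*, the gene of a receptor phosphatase that acts on MET and PDGF receptors, was 2.12-fold higher in Alkbh1-/- mESCs. The insulin-like growth factor binding protein genes with group means went in opposite directions. *Igfbp2* had a log2 difference of 0.90 (group means 11.41 in WT and 12.31 in Alkbh1-/- mESCs) and *Igfbp3* one of −1.02. *Igfbp4* and *Igfbp5* had no group means. *Errfi1*, which encodes an inhibitor of EGFR that growth factors induce, was lower at both probe sets (−0.54 and −0.45). *Socs2*, a feedback inhibitor gene of cytokine and growth hormone signaling, was lower at 3 dimmer probe sets (−0.41, −0.89 and −0.44), and *Lrig2* was higher at a dimmer one (0.41). The brightest probe sets of *Socs2* and *Lrig2* had no group means.

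**Figure D3:**
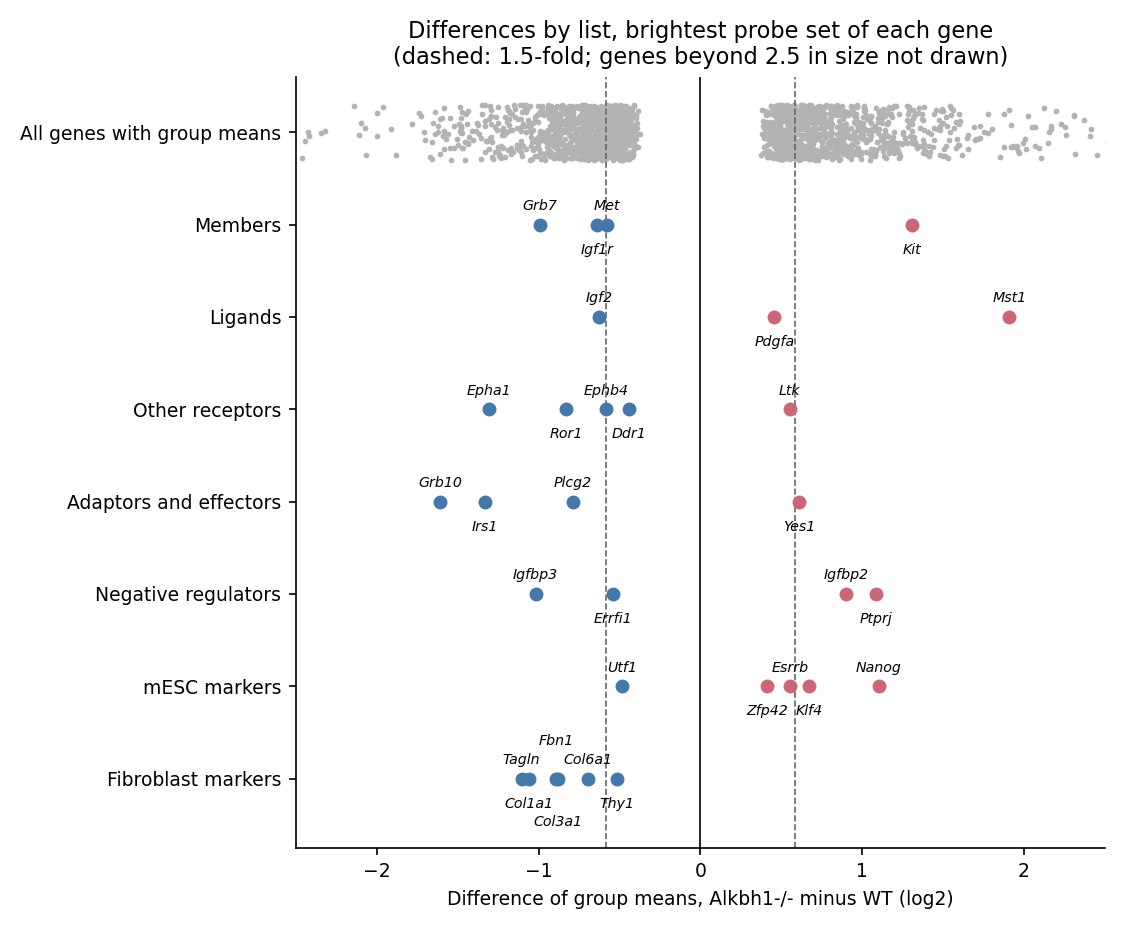
The difference of the group means, Alkbh1-/- minus WT on the log2 scale (horizontal axis), is plotted for each gene with group means at its brightest probe set, with the 10 genes described here, the related lists and the cell type markers on separate rows and the 2261 genes in grey on top, apart from those beyond the axis. Dashed lines mark 1.5-fold and no value lies near 0 because the table lists only probe sets that differed at the nominal threshold. The fibroblast markers all lie on the lower side, and the members on both.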

How the data were processed

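The authors normalized the arrays together by robust microarray analysis (RMA) and deposited a table of 33142 probe sets, from which the mean log2 value over all arrays was taken. A class comparison, deposited by the authors and made by a service company, gives for 4326 entries the geometric mean intensity in each genotype; 7320 probe sets are counted there as left by an undescribed filter. Its second class is misnamed in the header and is the WT according to the accompanying description. Both tables also hold the authors' own comparison (log2 or linear fold, moderated statistics, p-values, false discovery rates), and none of these columns was used. The values in the class comparison stand beside the identifiers of other probe sets. Each entry was therefore matched to the single probe set whose mean over all arrays equals the average of its log2 group means within 1e-06, which placed 4232 entries. All 4232 probe sets are also among the printed identifiers, and 705 of 708 genes with several matched probe sets had 1 direction. No unmatched entry lay within 0.0032 of a member. The match was tested on simulated entries built around the levels of the same probe sets. Such a test can show whether a level picks out a single probe set, but not whether the real entries follow this rule.

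Probe sets were named by gene identifier, accession and symbol through RefSeq (GRCm38.p6; 28205, or 85.1%, named). A gene is given by its brightest probe set. Differences are log2 group means, Alkbh1-/- minus WT, without a test, since the design had foreseen limma only for values of single arrays. The genes named are the 10 members, *Alkbh1*, and list genes with group means; neighbours, sex-linked genes and markers without group means were added after values were seen. The members and lists were chosen with earlier results of these data known. Alternatives were the probe set, the match, the centring and the fold. The number of arrays limits the precision. Python 3.11.15, pandas 2.3.3, NumPy 2.4.6 and matplotlib 3.10.9 were used.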

Additional observations from a re-analysis of the deposited data

How the results depend on the processing

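The directions of *Kit*, *Grb7*, *Igf1r* and *Met* held under every alternative that gave a value except the identifier printed beside the entry. At the brightest probe set this identifier reversed the first 3 and kept the direction of *Met*. The log2 differences were then −0.57, 0.78, 1.32 and −1.25, the values of other probe sets by the match. *Kit* was 1.28 as the mean of its probe sets and 1.26 at the dimmer one. A tolerance 10 times wider or narrower left the value unchanged for 3 of the 4 genes each, with no single match for *Grb7* at the wider and for *Kit* at the narrower. Centring on the median of all entries (0.42) gave 0.89, −1.41, −1.06 and −0.996 in the order above, and centring on the median over genes with group means (−0.44), chosen after seeing the data, gave 1.75, −0.55, −0.20 and −0.14; the directions held under both. With a linear fold of 2, 1 member was higher and 0 lower. Of the 16 related genes with group means at their brightest probe set, 2 were then higher and 4 lower. At 1.5-fold these were 4 and 7, where 31.6% of all genes with group means were higher and 33.4% lower. At a log2 difference of 1.5, 0 members were higher and 0 lower, and 1 related gene each way. Shares over all genes were computed only at 1.5-fold, so that the counts at the larger folds are a description. As the mean of all probe sets, levels were 7.67 for *Kit*, 4.93 for *Kitl*, 5.46 for *Egfr*, 6.22 for *Erbb3*, 4.66 for *Pdgfra*, 6.43 for *Pdgfrb* and 6.08 for *Igf1r*. No paired analysis was possible because no values of single arrays were used, only means, and leaving out replicates was not run for the same reason. No filter on dim probe sets was added to the undescribed filter that the authors had applied before the group means were listed.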

Other observations

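In the class comparison, 8 of the 4232 matched entries carry the identifier of the probe set whose values they hold. The 6 probe sets of *Kit*, *Grb7*, *Igf1r* and *Met* are all among the printed identifiers, but the values printed beside them match those of other genes. Beside the identifier of the brighter *Kit* probe set stands a log2 difference of −0.57, which matches a probe set of *Palld*. Beside that of the dimmer *Kit* probe set stands 1.80, which matches a probe set of *Klk1* and keeps the direction of *Kit*. Beside that of *Grb7* stands 0.78. A reading of that table by its identifiers would give the brightest probe sets of *Kit*, *Grb7* and *Igf1r* the opposite direction.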
